A study of Mus musculus with 3 samples.

Results

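The cells described here are those that scored low for both replicating and dividing genes in a culture of mouse embryonic stem cells. They numbered 387 of 1863 intact cells and of 2222 cell barcodes in all. The cells were E14tg2a embryonic stem cells, a laboratory line used widely for work on pluripotency, and every library carried the Fgf4 -/- genotype, so no library with an intact Fgf4 gene was analysed here. Cells were seeded in medium with LIF and then kept for 24 h in serum-free N2B27 with the GSK3 inhibitor Chiron, 1 ug/ml heparin and FGF4 protein at 0, 5 or 50 ng/ml. Each dose was 1 droplet-based 3' RNA library without replicates, so no test between doses was possible, and intervals given here cover counting error only. The sources used here do not say whether the line was 1 clone, nor which of trypsin or Accutase released the cells of each library.

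Membership was decided by expression. An intact cell had at most 10% of its unique molecular identifiers (UMIs, counted mRNA molecules) from mitochondrially encoded genes, and a UMI total within 3-fold of the library median. An S score summed 10 replication genes (Mcm2, Mcm3, Mcm5, Mcm6, Pcna, Cdc6, Slbp, Ung, Rrm2 and Gins2) and a G2M score summed 10 mitotic genes (Ccnb1, Ccnb2, Cdk1, Top2a, Aurka, Plk1, Cenpe, Cenpf, Cdc20 and Ube2c), each as UMIs per 10000 UMIs of the cell. Both scores were turned into z-scores within a library, and cells with both z at or below 0 were the members. There were 77 members at 0 ng/ml (21.4% of intact cells, exact binomial 95% interval 17.3 to 26.1), 130 at 5 ng/ml (18.4%, 15.6 to 21.5) and 180 at 50 ng/ml (22.6%, 19.7 to 25.6). Since the z-scores were taken within each library, these shares are set largely by the rule and are not compared between doses. Other intact cells were called S-leading or G2M-leading by the higher of the 2 z-scores, 772 and 704 cells in all.

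The cut ran through a continuous cloud. The S cut lay at 15.8, 16.9 and 16.9 UMIs per 10000 at 0, 5 and 50 ng/ml. Within 0.1 z of it, 7, 10 and 13 cells lay at or under the cut and 2, 18 and 8 lay over it. The G2M cut lay at 24.4, 22.0 and 22.0 UMIs per 10000, with 8, 14 and 13 cells just under and 7, 16 and 14 just over. With both z at or below -0.25 instead, members were 11.4%, 10.3% and 13.7% of intact cells.

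**Figure D1:**
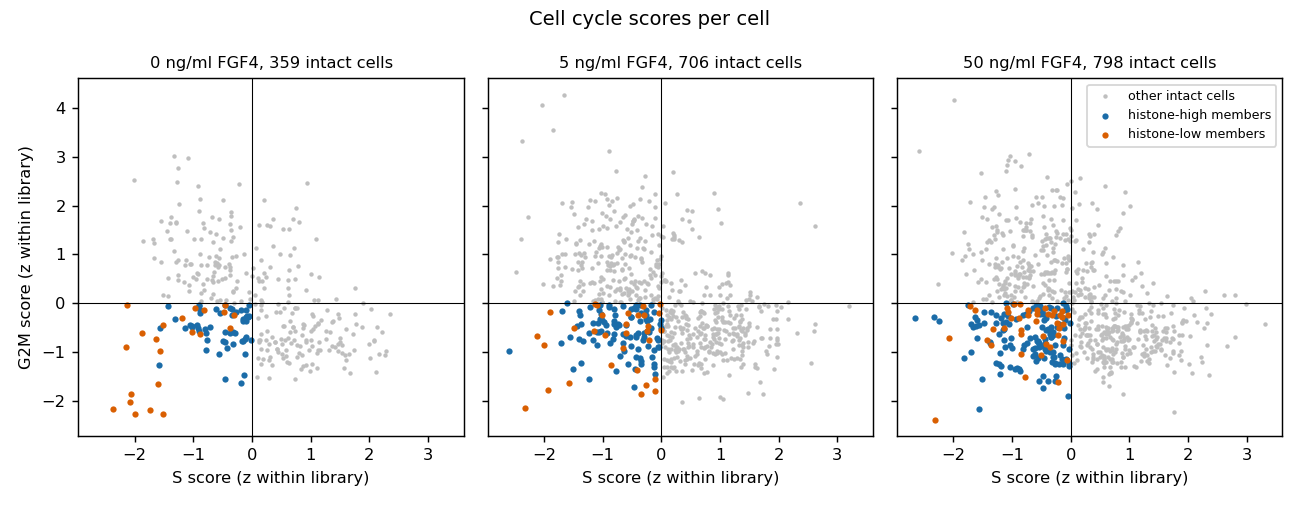
Each point is 1 intact cell, with its S score on the horizontal axis and its G2M score on the vertical axis, both as z within the library, in 1 panel per FGF4 dose. Members fill the lower left corner in all 3 panels, and histone-low members (orange) have a median S z of -1.54 at 0 ng/ml, further from the cut than the -0.60 and -0.58 at 5 and 50 ng/ml.

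Embryonic stem cells divide quickly and spend little time in G1, the phase between division and DNA replication. In most cell types D-type cyclins (Ccnd1, Ccnd2, Ccnd3) drive the passage through G1, cyclin E (Ccne1, Ccne2) acts at the start of S phase, and S phase genes and histone genes are transcribed as DNA is copied. Replication-dependent histone genes sit in clusters, are switched on in S phase and supply the protein that packs the new DNA. A cell low in both scores could thus be in G1 or, once the early replication genes have declined but histone mRNA persists, late in S. Most replication-dependent histone transcripts end in a stem-loop rather than a poly(A) tail, and these libraries were primed on poly(A), so the histone values cover only molecules that the priming captured.

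Histone gene promoters share short sequence elements, and the stretch upstream of 5 histone genes is shown because the split of the members rests on genes of this kind. Each run is the 150 bases before the transcription start in RefSeq (GRCm38.p6), written 5' to 3' on the gene's strand, and capitals mark CCAAT (or ATTGG, the same motif on the other strand), TATAAA and AAACACA, the element named for H1 genes. Hist1h1c (linker histone H1, RefSeq H1f2) is at chr13:23738657-23738806, plus strand. Hist1h1b (RefSeq H1f5) is at chr13:21780626-21780775 and Hist1h1e (RefSeq H1f4) at chr13:23622559-23622708, both on the minus strand. Hist1h4d (core histone H4, RefSeq H4c4) is at chr13:23581418-23581567, plus strand, and Hist1h3e (core histone H3, RefSeq H3c6) at chr13:23562386-23562535, minus strand.
Hist1h1c: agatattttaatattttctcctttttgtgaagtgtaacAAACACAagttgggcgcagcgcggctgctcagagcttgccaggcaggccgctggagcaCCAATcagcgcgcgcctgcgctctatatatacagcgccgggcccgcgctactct
Hist1h1b: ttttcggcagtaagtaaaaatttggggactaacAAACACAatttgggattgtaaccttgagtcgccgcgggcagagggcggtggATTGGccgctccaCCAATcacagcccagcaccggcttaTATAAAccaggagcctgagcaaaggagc
Hist1h1e: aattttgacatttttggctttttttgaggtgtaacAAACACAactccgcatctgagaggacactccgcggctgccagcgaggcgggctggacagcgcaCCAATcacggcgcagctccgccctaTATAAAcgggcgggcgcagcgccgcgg
Hist1h4d: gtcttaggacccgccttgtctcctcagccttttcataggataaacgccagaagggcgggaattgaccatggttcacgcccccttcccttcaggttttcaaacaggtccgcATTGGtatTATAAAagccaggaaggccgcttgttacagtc
Hist1h3e: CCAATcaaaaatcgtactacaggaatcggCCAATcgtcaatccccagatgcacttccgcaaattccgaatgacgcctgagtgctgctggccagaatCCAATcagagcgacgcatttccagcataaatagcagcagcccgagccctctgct
The 3 H1 promoters had CCAAT beginning 54, 53 and 52 bases before the start (Hist1h1c, Hist1h1b and Hist1h1e) and AAACACA beginning 112, 117 and 115 bases before it. Neither the H4 nor the H3 promoter had AAACACA in this window. Among promoters not shown, that of the H1 gene Hist1h1a lacked it, and those of Hist1h2ab, Hist1h2ba and Hist1h2bm, H2A or H2B genes, had it. Of 67 histone cluster genes in the files, 61 matched RefSeq by symbol or synonym, with 62 promoters. CCAAT was in 51 of those 62 (82.3%), against 24.5% of all 32851 promoters in the same window on both strands. TATAAA was in 24 (38.7%, against 7.57%) and AAACACA in 8 (12.9%, against 3.53%). A match is a description of letters and does not show that a factor binds there.

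Summed over all 67 genes, histone cluster transcripts made up 5789, 5387 and 4513 CPM (UMIs summed over the cells of a class and scaled to their total) in members at 0, 5 and 50 ng/ml. The other intact cells held 3423, 3575 and 2920 CPM. Hist1h2ap, a core histone H2A gene, alone gave 60.8%, 60.5% and 62.4% of the members' sum. Of the histone genes with at least 5 CPM in members or in others (37, 41 and 37 genes), 37, 40 and 37 were higher in members, 25, 8 and 8 of them by 1.5-fold or more. Over all 5627, 5517 and 5448 genes with at least 20 CPM, 1.28%, 0.29% and 0.532% were that much higher. Members were defined on the same cells, so these values describe them and are not a test. Replication-independent histone genes, which are expressed through the cycle and carry poly(A) tails, did not share the difference. Of 9 such genes 0 differed by 1.5-fold in either direction at any dose, with a median log2 ratio of 0.05, 0.05 and 0.03, and H3f3b, a histone H3.3 gene, was at 1256, 1332 and 1308 CPM in members against 1100, 1210 and 1196 CPM in others.

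The sum hid a split. A histone score (UMIs per 10000 over the 67 genes) was z-scored over intact cells within each library, and members over 0 were called histone-high. They were 55 of 77 members at 0 ng/ml (71.4%, 60.0 to 81.2), 99 of 130 at 5 ng/ml (76.2%, 67.9 to 83.2) and 138 of 180 at 50 ng/ml (76.7%, 69.8 to 82.6), in all 292, with 95 histone-low members. The cut lay at 41.3, 40.4 and 34.0 UMIs per 10000. Within 0.25 z of it, 6, 7 and 7 members were just under and 8, 9 and 18 just over. A class made by such a cut is a range of a score, not a cell type. With no cell filter, which adds 359 barcodes with few UMIs or many mitochondrial ones, histone-high members were 41.9% at 5 ng/ml and 43.8% at 50 ng/ml.

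Histone-high members had a median histone score of 67.4, 62.9 and 52.4 UMIs per 10000 at 0, 5 and 50 ng/ml. S-leading cells stood at 65.4, 53.9 and 46.0. Histone-low members had medians of 6.63, 11.0 and 8.99, close to the 5.37, 14.7 and 8.32 of G2M-leading cells. These classes were cut by the score itself, so the medians describe the cut. Over all members the median was 57.3, 56.9 and 47.9, below S-leading cells at 0 ng/ml and above them at 5 and 50 ng/ml.

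**Figure D2:**
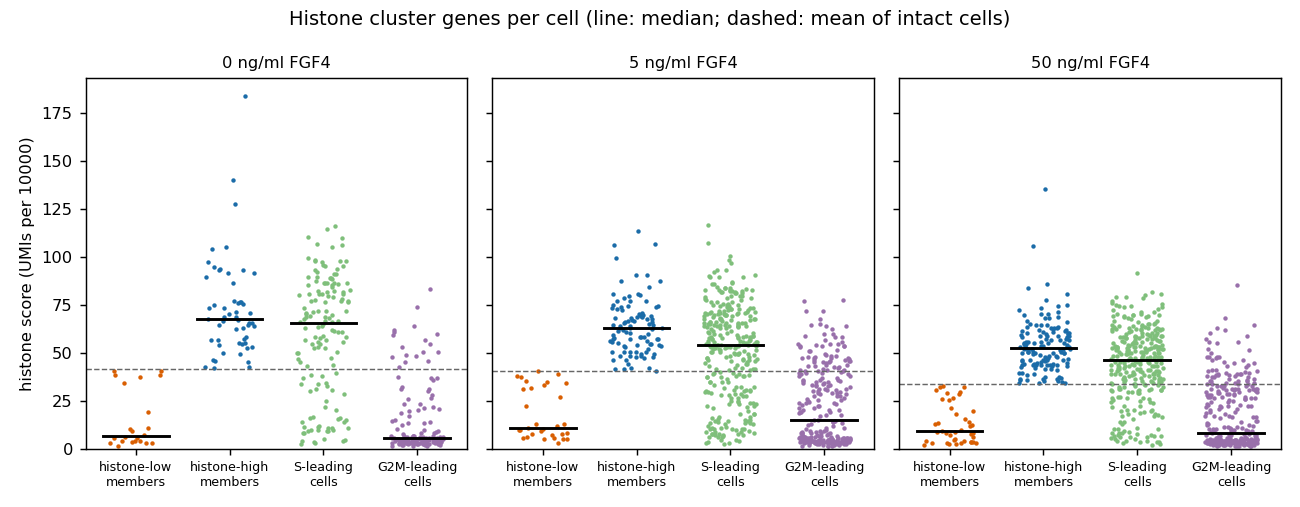
Each point is the histone score of 1 cell (vertical axis, UMIs per 10000) by class, in 1 panel per FGF4 dose, with the class median as a bar and the mean of intact cells as a dashed line. Histone-high members (medians 67.4, 62.9 and 52.4) and histone-low members (6.63, 11.0 and 8.99) lie above and below the dashed line because they were cut there, while S-leading cells (65.4, 53.9 and 46.0) spread over both sides.

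The proposed late S markers followed the split, as they must, since both genes are in the score. Hist1h4d (ENSMUSG00000061482, chr13:23581598-23582735, plus strand, GENCODE M21 on GRCm38) was at 40.3, 38.1 and 22.4 CPM in histone-low members at 0, 5 and 50 ng/ml and at 106, 99.4 and 67.3 CPM in histone-high members. It was at 65.9, 64.0 and 48.5 CPM in S-leading cells and at 34.4, 49.0 and 34.1 CPM in G2M-leading cells, so histone-high members held the most at each dose. Hist1h1c (ENSMUSG00000036181, chr13:23738808-23740367, plus strand) was at 54.3, 46.5 and 41.5 CPM in histone-high members and at 45.8, 47.1 and 40.3 CPM in S-leading cells, which was about level. Without these 2 genes in the score, no share or count of the split moved beyond its counting interval or by more than 1.5 times.

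The proposed G1 markers did not mark either class. Ccnd1 (cyclin D1, ENSMUSG00000070348, chr7:144929931-144939925, minus strand) was at 144, 179 and 163 CPM in members and at 161, 207 and 211 CPM in other intact cells at 0, 5 and 50 ng/ml. A G1 label would fit histone-low members by their low histone scores, but G2M-leading cells had similar scores. In histone-low members Ccnd1 was at 132 (116 to 150), 198 (181 to 215) and 173 (159 to 187) CPM, against 157, 200 and 211 CPM in S-leading cells. The log2 ratio of Ccnd1 to S-leading cells was thus -0.25, -0.02 and -0.29, and the middle value became 0.05 when totals left out mitochondrial and ribosomal protein genes. Ccnd2 (cyclin D2, ENSMUSG00000000184, chr6:127125162-127152193, minus strand) was at 10.4, 32.0 and 43.2 CPM in members and at 7.19, 46.0 and 53.9 CPM in others. It was higher in members only at 0 ng/ml, where 1 cell gave 33.8% of the members' Ccnd2 UMIs. G2/M genes outside the rule, summed per cell, had medians of 58.9, 57.6 and 59.9 UMIs per 10000 in histone-low members. Histone-high members had 59.7, 54.0 and 51.7, S-leading cells 58.9, 57.1 and 55.5, and G2M-leading cells 77.0, 67.2 and 65.8. The phase of either class was not tested. The classes are therefore named by their histone genes here and not by a phase.

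Cyclin E was lower as well. S-leading cells, which the rule left out of members, held the most Ccne1, so its lower level in members describes the choice of cells. Ccne1 (cyclin E1) was at 117, 221 and 260 CPM in members and at 207, 315 and 354 CPM in other intact cells at 0, 5 and 50 ng/ml. Histone-low and histone-high members were alike in this gene, at 107 and 121 CPM, 202 and 226 CPM, and 260 and 260 CPM. S-leading cells had 270, 409 and 443 CPM. Ccne2 (cyclin E2) stood at 5.32, 8.73 and 7.71 CPM in members and at 11.4, 17.9 and 13.9 CPM in others. Ccnd3 (cyclin D3) stood at 63.4, 73.5 and 80.0 CPM against 77.7, 86.5 and 93.2 CPM. Of 8 G1 cyclins and their kinases, 2, 1 and 1 were at least 1.5-fold lower in members than in others and 0 were higher. Over all genes from 20 CPM, 0.32%, 0.308% and 0.239% were that much lower, while list genes were read from 5 CPM. The median log2 ratio of the 8 was -0.32, -0.22 and -0.27 (all genes tested, -0.04, -0.05 and -0.06). Among 13 genes of the Rb and E2F family, which switch S phase genes off and on, 0 were higher and 2, 2 and 1 lower; the lower ones were E2f8, a repressor that is itself expressed in S phase, at every dose and E2f2 at 0 and 5 ng/ml. Of 5 measured CDK inhibitors 0 differed by 1.5-fold in either direction.

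Genes of replication and division that were not in the rule were on balance lower in members. Members were picked by low scores of genes from the same phases, so the values that follow describe the choice of cells. Of 32 other S phase genes, 0, 1 and 1 were at least 1.5-fold lower than in other intact cells at 0, 5 and 50 ng/ml, with median log2 ratios of -0.25, -0.17 and -0.20. Of 38 other G2/M genes, 3, 2 and 4 were lower, with medians of -0.31, -0.32 and -0.30. The share of all genes from 20 CPM that much lower was 0.32%, 0.308% and 0.239%, while list genes were read from 5 CPM. Nusap1, which binds spindle microtubules, stood out among them at 80.8, 73.8 and 65.3 CPM in members against 159, 142 and 131 CPM in others.

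Across the 3 libraries, 7 of 5164 genes passed 1.5-fold in every one with members above other intact cells (0.136%), and 1 with members below (0.0194%), which was Nusap1. Of the 7, 4 were histone genes: Hist1h3e (88.1, 70.5 and 60.4 CPM against 40.8, 44.4 and 34.4), Hist1h3f, Hist1h2ae and Hist1h2ap. Plk2, a polo-like kinase that responds to serum and to p53, was at 35.8, 30.7 and 29.7 CPM in members against 18.9, 19.4 and 16.4 CPM, or 1.89-fold (1.64 to 2.18), 1.58-fold (1.41 to 1.78) and 1.81-fold (1.62 to 2.02) higher. Dcxr, an enzyme of sugar metabolism, was 1.53-fold, 1.53-fold and 1.63-fold higher, and the remaining gene was one known only by a clone name. With fewer libraries to agree, the counts were 20 higher without the 5 ng/ml library, and 4, 2 and 3 lower without the 0, 5 and 50 ng/ml library.

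Members carried fewer UMIs per cell. The median was 92382, 93238 and 88248.5 in members and 113172, 99558.5 and 96802.5 in other intact cells at 0, 5 and 50 ng/ml, so members stood at 0.82, 0.94 and 0.91 of the others. With no cell filter the ratio was 0.27 at 5 ng/ml and 0.18 at 50 ng/ml. Histone-low members were the shallowest, at 69771, 78853 and 74580 UMIs, and histone-high members (101044, 95199 and 90362.5) were above S-leading cells (97923.5, 90118.5 and 85372.5). G2M-leading cells had the most, 128352, 117236 and 111461. After each cell was thinned to 25000 UMIs, members showed a median of 4939, 4884.5 and 4833 genes and others 4966.5, 4976 and 4944. The median mitochondrial share was 5.63%, 5.32% and 5.62% in members and 5.18%, 5.14% and 5.43% in others.

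The histone-low and histone-high members differed in few other genes. Outside the histone genes, 1 of 5115 genes was at least 1.5-fold higher in histone-high members in all 3 libraries (0.0196%) and 4 were lower (0.0782%). Lefty1, a secreted inhibitor of Nodal signalling, was at 121, 106 and 47.4 CPM in histone-high and at 68.4, 41.7 and 19.3 CPM in histone-low members, 1.76-fold (1.45 to 2.15), 2.53-fold (2.08 to 3.11) and 2.46-fold (1.91 to 3.21) higher. The 4 lower genes were Plk2, Kank3, Dennd5a and Mpv17l. Kank3, of a family linked to the actin cytoskeleton, was at 29.5, 30.0 and 27.9 CPM in histone-high and at 54.6, 46.2 and 47.7 CPM in histone-low members. In Mpv17l, which encodes a mitochondrial and peroxisomal membrane protein, 1 cell gave most of the histone-low UMIs at 5 ng/ml. These counts are fragile. TMM scaling gave 3 higher and 2 lower, leaving out 1 library gave 3, 4 and 6 higher and 30, 14 and 32 lower (without 0, 5 and 50 ng/ml), and leaving out cells with 2-cell-like transcripts, described further on, gave 2 higher and 0 lower.

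Histone-low members were then set beside S-leading cells, a comparison added after the values had been seen. Here 10 of 5167 genes passed 1.5-fold in all 3 libraries with histone-low members above (0.194%) and 13 with them below (0.252%). The higher genes included Plk2, Serpine2, Ddit4l, Btg2, Mdm2, Cald1, Dcxr and Ckap2l. The lower genes were mostly of DNA replication, repair and chromatin copying: Fam111a, Chaf1a and Chaf1b (histone chaperone subunits), Wdhd1, Mcm4, Tk1, Pclaf, Uhrf1, Brca1 and Ccne1 were among them. Counting over mean shares per cell gave 16 higher and 12 lower, and totals without mitochondrial and ribosomal protein genes gave 31 and 12. Without the 0, 5 and 50 ng/ml library the higher counts were 21, 14 and 65, and the lower counts 19, 21 and 30. Histone genes were left out of these counts, since the class was chosen by them.

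Plk2 was at 55.2, 47.7 and 40.3 CPM in histone-low members and at 18.3, 17.1 and 14.1 CPM in S-leading cells at 0, 5 and 50 ng/ml. It was 3.02-fold (2.38 to 3.80), 2.78-fold (2.28 to 3.39) and 2.86-fold (2.34 to 3.48) higher, and histone-high members lay between the classes at 29.8, 26.0 and 26.8 CPM. Btg2, an anti-proliferative p53 target, was at 70.7, 32.9 and 36.5 CPM in histone-low members against 26.3, 17.2 and 14.0 CPM. Serpine2, a secreted protease inhibitor, was at 51.9, 39.9 and 31.1 CPM against 10.1, 16.3 and 12.6 CPM. All 3 genes were higher in histone-low members at every dose, with counting intervals that did not overlap.

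Mdm2, the ubiquitin ligase that degrades p53 and is itself its target, was at 206, 99.0 and 95.8 CPM in histone-low members against 90.3, 62.5 and 59.7 CPM in S-leading cells. Histone-high members had 93.4, 91.0 and 86.9 CPM, so Mdm2 was far above the other classes only in the 22 histone-low members at 0 ng/ml. Cdkn1a, the CDK inhibitor p21 and a classical p53 target, was at 157, 97.2 and 80.8 CPM against 113, 94.1 and 79.0 CPM, so it was higher at 0 ng/ml (1.39-fold, 1.22 to 1.58) and within counting error at the other doses. Trp53inp1, another target, was at 157, 124 and 77.1 CPM against 68.5, 62.3 and 55.1 CPM.

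Of 14 measured p53 targets, 9, 4 and 3 were at least 1.5-fold higher in histone-low members than in S-leading cells at 0, 5 and 50 ng/ml, and 0, 0 and 1 lower. The share of all genes from 20 CPM that much higher was 5.06%, 2.32% and 1.48%, while list genes were read from 5 CPM. The list's median log2 ratio was 0.67, 0.46 and 0.15, against -0.04, -0.07 and -0.06 over all genes tested. Of 10 measured genes of quiescence and growth arrest, which share Btg2 and Ccng1 with the p53 list, 5, 3 and 1 were higher and 0, 0 and 1 lower. The lower one was Klf4, a naive pluripotency factor. The p53 list summed per cell had medians of 21.45, 15.73 and 15.93 UMIs per 10000 in histone-low members at 0, 5 and 50 ng/ml. Histone-high members had 15.95, 15.36 and 15.24, and G2M-leading cells 15.67, 14.41 and 14.23. By this measure histone-low members stood well above these classes only at 0 ng/ml, where they were 22 cells. Histone-low members had fewer UMIs than S-leading cells (69771 against 97923.5 at 0 ng/ml) and a median mitochondrial share of 6.05%, 5.53% and 5.43% against 5.12%, 5.10% and 5.46% at 0, 5 and 50 ng/ml; their part in the result was not tested. With at most 5% mitochondrial UMIs, which left 6 histone-low cells at 0 ng/ml, the log2 ratio of Plk2 there turned from 1.59 to -0.40, and with no cell filter that of Mdm2 at 50 ng/ml turned from 0.68 to -0.02.

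**Figure D3:**
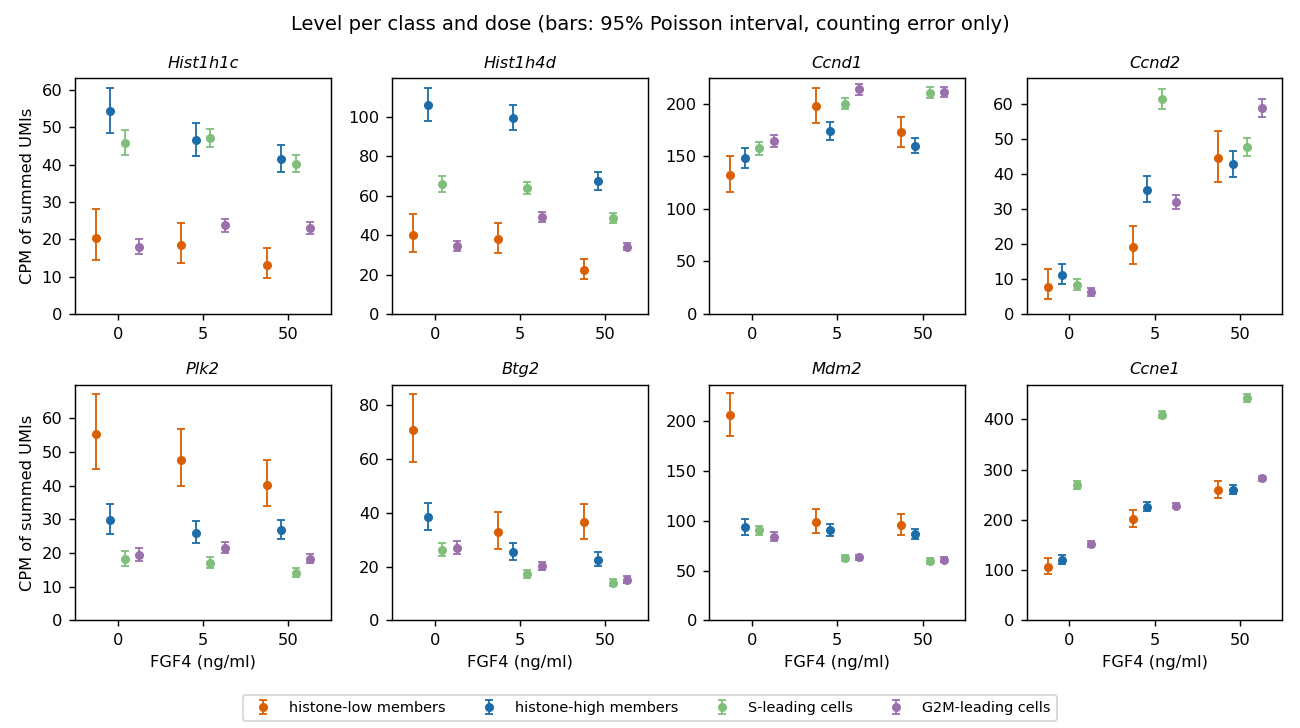
Level of 8 genes (vertical axis, CPM of UMIs summed over the cells of a class) by FGF4 dose (horizontal axis, ng/ml), with points for the 4 classes and bars for 95% Poisson intervals that cover counting error only. Hist1h1c and Hist1h4d separate the member classes as the split requires, Ccnd1 in both member classes is at or below its level in S-leading and G2M-leading cells, Plk2 and Btg2 are highest in histone-low members at each dose, and Ccne1 is highest in S-leading cells.

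The S phase genes outside the rule went the other way. Of 32 genes, 19, 4 and 10 were at least 1.5-fold lower in histone-low members than in S-leading cells and 0 were higher. Of all genes, here and below counted from 20 CPM, 3.83%, 1.97% and 1.68% were that much lower. Fam111a, a replication fork protein, was at 5.52, 12.2 and 14.7 CPM against 24.2, 39.3 and 38.5 CPM, and Uhrf1, which maintains DNA methylation after replication, at 110, 143 and 144 CPM against 215, 246 and 241 CPM. S-leading cells were picked by high replication scores, so this describes the choice of cells and is no result about histone-low members. Histone-high members were lower than S-leading cells in 6, 9 and 7 of the same 32 genes, where 0.938%, 1.19% and 0.789% of all genes were lower. In all 3 libraries 11 of 5154 genes were lower in histone-high members than in S-leading cells (0.213%), among them Ccne1, Uhrf1, Fam111a, Brca1, Mcm10 and Cdc25a, the phosphatase that activates CDK2. Beside G2M-leading cells, 13, 11 and 14 of 38 other G2/M genes were lower in histone-high members, where 0.94%, 0.997% and 1.32% of all genes were lower. Members were picked by low scores and the other classes by high ones, so these counts too describe the choice of cells.

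Pluripotency genes placed members among the other cells. Pou5f1 (Oct4) was at 195, 389 and 376 CPM in members and at 205, 393 and 385 CPM in others at 0, 5 and 50 ng/ml. Sox2 was at 385, 362 and 337 CPM against 383, 311 and 299 CPM, and Zfp42 at 452, 541 and 454 CPM against 455, 568 and 496 CPM. Nanog was at 274, 125 and 78.1 CPM against 282, 157 and 111 CPM. In the 22 histone-low members at 0 ng/ml Nanog was at 381 CPM (354 to 411), with 19.7% of its UMIs from 1 cell, against 241 CPM (228 to 254) in histone-high members. Members thus held the embryonic stem cell markers at every dose. Few members held markers of other cells. Of 387 members, 8 had 10 or more UMIs of the 3 defining primitive streak genes (2.07%, 0.897 to 4.03), against 29 of 1476 other intact cells (1.96%, 1.32 to 2.81). The 2 neuroectoderm genes reached that limit in 3 members (0.775%, 0.160 to 2.25) and 10 others (0.678%, 0.325 to 1.24), and the 4 primitive endoderm regulators in 3 members and 2 others (0.136%, 0.0164 to 0.489). The 9 fibroblast and feeder genes reached it in 0 members, where 3 cells would be 0.775% and the exact binomial upper bound is 0.949%, and in 2 others.

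Transcripts of the 2-cell-like state were found in a few members as well. Embryonic stem cell cultures hold rare cells that express Zscan4 genes and others known from the embryo at the 2-cell stage. With a limit of 10 UMIs over 10 such genes, chosen after the values had been seen, 9 of 387 members (2.33%, 1.07 to 4.37) and 8 of 1476 other intact cells (0.542%, 0.234 to 1.07) were 2-cell-like. By class they were 6 of 95 histone-low members (6.32%, 2.35 to 13.2), 3 of 292 histone-high members (1.03%, 0.212 to 2.97), 1 of 772 S-leading cells (0.130%, 0.00328 to 0.720) and 7 of 704 G2M-leading cells (0.994%, 0.401 to 2.04). The 9 members were 3, 1 and 5 at 0, 5 and 50 ng/ml. Their mitochondrial shares were 7.49%, 7.16% and 5.63% at 0 ng/ml and 9.97% at 5 ng/ml. At 50 ng/ml they were 7.95%, 9.02%, 1.57%, 7.59% and 6.89%. The medians of all members were 5.63%, 5.32% and 5.62%, and the 8 other 2-cell-like cells had 4.21% to 7.59%. The part of cell quality in these counts was not tested. The cells share 3 libraries, so the intervals measure counting of cells only and no test was made.

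The 2-cell-like members held between 55 and 2003 UMIs of the list. At 50 ng/ml the 4 histone-low ones had 2003, 909, 735 and 68 UMIs, and at 0 ng/ml a histone-high one had 1362. The cell with 2003 also held 195467 UMIs in all, the most of any histone-low member at that dose. Zscan4c was at 9.94, 39.5 and 338 CPM in histone-low members, against 0.123, 0.242 and 1.40 CPM in S-leading cells, so a level read from the sum of a class here is the level of a few cells. In cells under the limit the list reached no more than 4 UMIs.

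**Figure D4:**
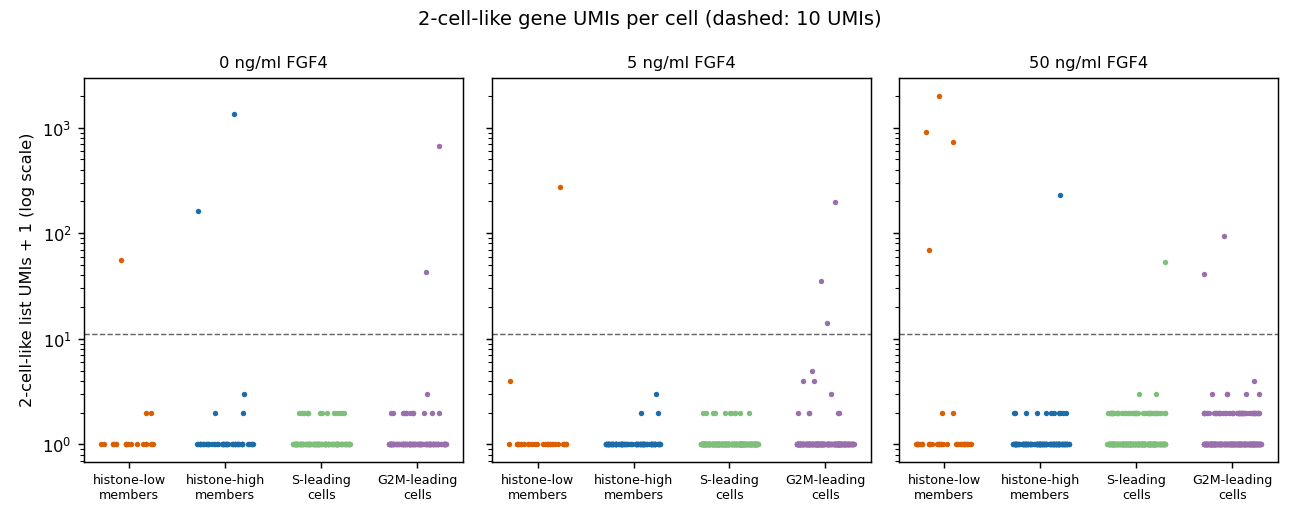
Each point is 1 intact cell, with its UMIs of the 2-cell-like genes plus 1 on a log axis, by class and FGF4 dose, and a dashed line at the limit of 10 UMIs. Nearly all cells lie at 0 or 1 UMI, and 17 lie over the line, 9 of them members, with the highest at 2003 UMIs in a histone-low member at 50 ng/ml.

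FGF4 binds receptor tyrosine kinases and acts through ERK, which in embryonic stem cells turns on its own feedback inhibitors and moves cells from the naive towards the formative pluripotent state. Within members, 122 of 5757 genes (2.12%) were up by 2-fold or more in the library at 50 ng/ml compared with that at 0, and 162 (2.81%) were down. At 5 compared with 0 ng/ml, 87 of 5731 were up (1.52%) and 116 down (2.02%). Both comparisons use the same members without FGF4. Among these genes, 13 at 50 and 22 at 5 ng/ml had at least 50% of the UMIs of the higher library from 1 cell. In the other intact cells of the same libraries the counts were 116 (2.03%) and 110 (1.93%) at 50 ng/ml and 78 (1.37%) and 64 (1.12%) at 5 ng/ml, over far more cells. Shared with the members' genes were 95 up and 93 down at 50 ng/ml, and 65 and 57 at 5 ng/ml. TMM scaling raised every log2 ratio of members at 50 against 0 ng/ml by 0.10 and gave 140 higher and 121 lower. Doses differ by 1 library each, so effects of dose and of library cannot be told apart.

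Most feedback inhibitors and transcription factors downstream of ERK were higher. Etv4, an ETS factor, was at 1.56, 48.3 and 85.5 CPM in members at 0, 5 and 50 ng/ml, 54.9-fold (31.3 to 107) higher at 50 than at 0, and 82.3-fold (59.9 to 116) higher in other cells. Spry4, a Sprouty inhibitor of the pathway, had 2 UMIs in members at 0 ng/ml and was at 14.3 and 25.5 CPM at 5 and 50 ng/ml, a ratio of 98.3 (27 to 814) for 50 against 0. In other cells it had 1 UMI at 0 ng/ml. Dusp6, an ERK phosphatase, was at 1.30, 16.2 and 20.3 CPM, 15.6-fold (8.39 to 32.9) higher. Of 13 measured FGF and ERK targets, 10 passed 2-fold upwards at 50 ng/ml and 9 at 5 ng/ml, with a median log2 ratio of 2.44 and 1.87 (all genes, 0.00 and 0.01). Over all genes from 20 CPM, 2.12% and 1.52% passed 2-fold upwards, while list genes were read from 5 CPM. Other cells had 10 of 13 at 50 ng/ml, with a median of 2.92.

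Egr1, an immediate early gene often used as a readout of ERK, was the one target that was lower. It was at 66.9, 21.2 and 12.6 CPM in members, 5.30-fold (4.50 to 6.27) lower at 50 than at 0 ng/ml, and at 35.2, 14.8 and 8.74 CPM in other cells. Egr1 was higher in members than in other cells at each dose. Etv5, an ETS factor also counted among the targets, was at 185, 200 and 179 CPM in members, with no step past 2-fold.

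Several naive genes were lower and several formative genes higher, at both doses. Nanog was 3.51-fold (3.27 to 3.76) lower at 50 than at 0 ng/ml in members and 2.53-fold (2.45 to 2.61) lower in others. Prdm14, a repressor of FGF signalling and DNA methylation, was at 12.6, 3.31 and 1.62 CPM, 7.78-fold (5.00 to 12.5) lower. Tfcp2l1, of the naive network, was at 156, 71.6 and 46.9 CPM. Of 14 naive genes 6 were at least 2-fold lower at 50 and 5 at 5 ng/ml, with median log2 ratios of -0.77 and -0.48. Among all genes from 20 CPM, 2.81% and 2.02% were that much lower. In other cells 6 were lower at 50 ng/ml, with a median of -0.91.

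Among formative genes, 7 of 10 passed 2-fold upwards at 50 ng/ml and 5 of 9 at 5 ng/ml, with medians of 1.96 and 1.62. The share over all genes was 2.12% and 1.52%, counted from 20 CPM, while list genes were read from 5 CPM. Dnmt3l, cofactor of the de novo DNA methyltransferases, was at 22.2, 134 and 160 CPM in members, 7.20-fold (6.17 to 8.46) higher at 50 than at 0 ng/ml. In other cells it started lower, at 11.8 CPM, and was 14.8-fold (13.4 to 16.3) higher, with 175 CPM at 50 ng/ml. Otx2, a formative transcription factor, was at 1.43, 5.09 and 14.5 CPM in members and differed between 50 and 5 ng/ml too, by 2.85-fold (2.15 to 3.82). Utf1, of the general pluripotency list, was at 44.9, 297 and 379 CPM. Whether members and other cells differ in these dose effects was not tested, as there was 1 library per dose.

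**Figure D5:**
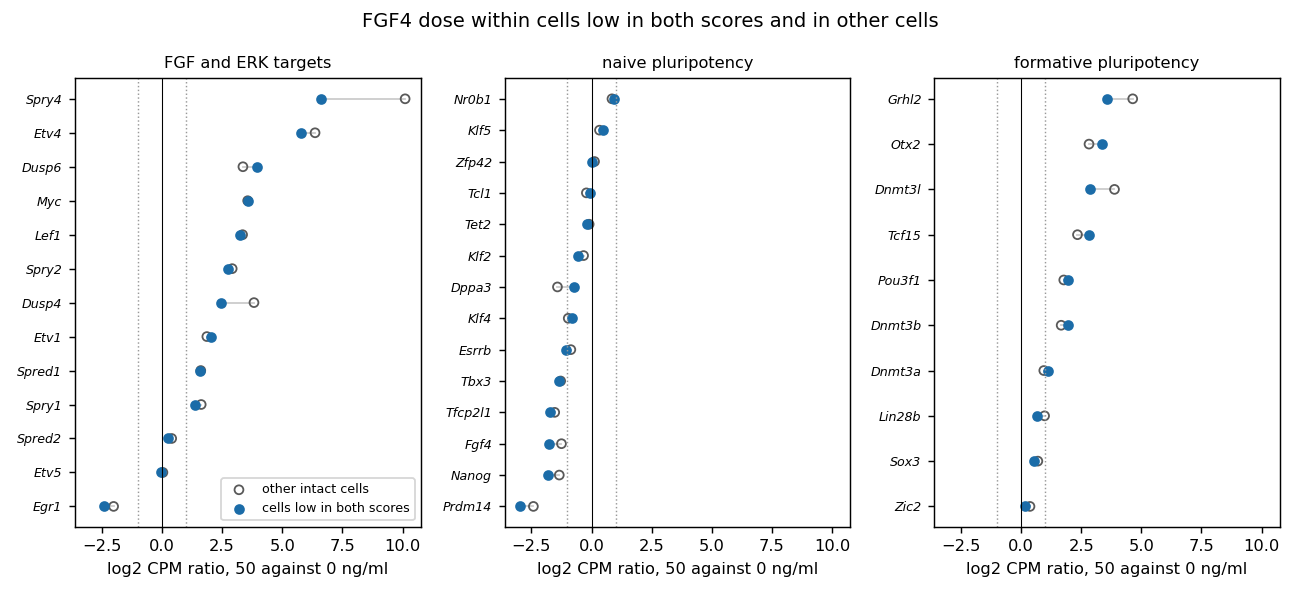
Log2 CPM ratio of 50 against 0 ng/ml FGF4 (horizontal axis) for the measured genes of 3 lists (rows), in members (filled points) and in other intact cells (open points), with dotted lines at 2-fold. In members 10 of 13 FGF and ERK targets and 7 of 10 formative genes lie beyond 2-fold higher and 6 of 14 naive genes beyond 2-fold lower, and Spry4, Dusp4, Grhl2 and Dnmt3l show the widest gaps between the points, that of Spry4 resting on 2 and 1 UMIs at 0 ng/ml.

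Cell cycle regulators differed by dose within members. Ccnd2 was at 10.4, 32.0 and 43.2 CPM, 4.16-fold (3.30 to 5.31) higher at 50 than at 0 ng/ml in members and 7.49-fold (6.58 to 8.55) higher in others. Ccne1 was 2.21-fold (2.06 to 2.38) higher in members and 1.71-fold (1.66 to 1.75) higher in others. Ccnd1 was 1.13-fold (1.05 to 1.21) higher in members and 1.31-fold (1.27 to 1.35) higher in others. Its log2 ratio in members, 0.17, became -0.05 with at most 5% mitochondrial UMIs and -0.03 with no cell filter. Cdkn1b, the CDK inhibitor p27, was at 23.9, 10.5 and 8.33 CPM, 2.86-fold (2.28 to 3.61) lower, and Cdkn1a at 132, 93.8 and 74.4 CPM, 1.78-fold (1.64 to 1.94) lower.

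Among the p53 targets 1 of 14 passed 2-fold upwards at 50 ng/ml and 0 downwards, with a median log2 ratio of -0.42. Of all genes from 20 CPM, 2.12% passed upwards and 2.81% downwards. The higher gene was Pmaip1 (Noxa, a pro-apoptotic BH3 protein), at 3.76, 16.7 and 22.1 CPM in members and at 1.48, 11.5 and 14.0 CPM in others. Mdm2 was at 120, 92.8 and 88.9 CPM in members and Btg2 at 46.0, 27.1 and 25.6 CPM. The level of both was thus highest without FGF4, in members as in other cells (86.9, 62.8 and 60.3 CPM for Mdm2, and 26.7, 18.7 and 14.7 CPM for Btg2).

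The genes with the largest differences by dose in members lay largely outside these lists. Besides Spry4, Etv4, Dusp6, Lef1 and Utf1, the highest ratios of 50 against 0 ng/ml were those of Pde2a, a cyclic nucleotide phosphodiesterase (13.6-fold, 7.67 to 26.5), Enpp3 (13.0-fold, 7.92 to 23.0), Slc7a7, an amino acid transporter subunit (9.82-fold, 7.76 to 12.6), Cntfr, a cytokine receptor subunit (9.04-fold, 5.83 to 14.8), and Bst2 (8.94-fold, 6.45 to 12.7). The lowest were S100a13 (18.1-fold lower, 11.2 to 30.9), Calcoco2, a selective autophagy receptor (12.8-fold, 11.0 to 14.8), Rnf213 (10.1-fold, 7.44 to 13.8), Trpm1 (9.85-fold), Mobp (8.54-fold), Hes1, a Notch target (6.38-fold, 5.47 to 7.48), Lpar1, Aqp3, Egr1 and Elf3. At 0 ng/ml 1 cell gave 41.1% of the members' Trpm1 UMIs and 23.0% of those of S100a13. Calcoco2 went from 167 CPM without FGF4 to 25.8 and 13.1 CPM in members and from 190 to 24.5 and 16.6 CPM in others.

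Metabolic and lineage genes gave a few more differences. Of 16 glycolysis genes 2, Pdk1 and Ldha, passed 2-fold upwards at 50 compared with 0 ng/ml in members and 1, Hk1, downwards, beside 2.12% and 2.81% of all genes. Pdk1, a kinase that holds back the entry of pyruvate into mitochondria, was at 13.7, 99.0 and 106 CPM in members and at 15.2, 90.6 and 106 CPM in others. Ldha, lactate dehydrogenase, was at 644, 1288 and 1419 CPM against 820, 1295 and 1436 CPM. Of 6 measured primitive streak genes 5 were higher at 50 ng/ml (T, Eomes, Fst, Cdx2 and Nkx1-2) and 1, Wnt3, was lower, all at under 15 CPM. The shares over all genes were counted from 20 CPM, so they are no measure for these genes. Eomes, a regulator of the streak and endoderm, was at 1.43, 5.82 and 8.21 CPM in members and at 2.61, 7.27 and 9.86 CPM in others. Gata6, a primitive endoderm regulator, was at 0.908, 0 and 4.73 CPM, and at 50 ng/ml it was at 14.4 CPM in histone-low and 2.06 CPM in histone-high members. It came from few cells: 3 of 180 members at 50 ng/ml (1.67%, 0.345 to 4.79) and 2 of 618 others (0.324%, 0.0392 to 1.16) had 10 or more UMIs of 4 such regulators, and 2 of the 3 were histone-low.

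The member classes were also compared by dose on their own. In histone-low members, with 22 cells at 0 ng/ml, 182 of 5908 genes passed 2-fold upwards at 50 compared with 0 ng/ml (3.08%) and 275 downwards (4.65%). In histone-high members, with 55 cells at 0 ng/ml, 116 of 5732 were higher (2.02%) and 171 lower (2.98%). At 50 against 5 ng/ml the counts were 50 and 47 in histone-low (0.878% and 0.826%) and 2 and 8 in histone-high members (0.037% and 0.148%). Nanog was at 381, 146 and 73.0 CPM in histone-low and at 241, 119 and 79.5 CPM in histone-high members, so the classes were apart without FGF4 and close at 50 ng/ml.

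Between the FGF4 doses members differed little. At 50 against 5 ng/ml, 16 of 5475 genes passed 2-fold upwards (0.292%) and 8 downwards (0.146%). Other intact cells had 1 (0.0181%) and 3 (0.0544%). Mean shares per cell gave 17 and 14. Without the 2-cell-like cells the members' counts were 1 and 5, and the 5 Zscan4 genes and pseudogenes past 2-fold (Zscan4c, Zscan4d, Zscan4-ps1, Zscan4-ps2 and Zscan4-ps3) had 36.7% to 65.7% of their UMIs at 50 ng/ml from 1 cell. These copies are alike in sequence, and the sources used here do not say how the counting split reads among them. Among the lower genes Lefty1 was at 91.8 and 41.3 CPM at 5 and 50 ng/ml.

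The RNA of the disrupted gene was still counted. Fgf4 was at 48.0, 23.8 and 14.2 CPM in members and at 52.8, 25.2 and 22.2 CPM in other intact cells at 0, 5 and 50 ng/ml, 3.39-fold (2.86 to 4.01) and 2.38-fold (2.22 to 2.55) lower at 50 than at 0. The sources used here do not say which part of the gene was removed, so these 3' reads do not check the genotype.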

How the data were processed

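Whole cells of 3 libraries, 1 per FGF4 dose, were measured. The deposited matrices hold UMI counts per gene and cell barcode for 32285 genes, made with Cell Ranger 4.0.0 per the file headers, on mm10 per the submitters' processing notes; the sources used here do not give the annotation or the settings for cell calling. Library totals were 42726514, 75184072 and 81409975 UMIs at 0, 5 and 50 ng/ml over 373, 874 and 975 barcodes, and 0 barcodes were shared between libraries.

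Intact cells were kept (at most 10% mitochondrial UMIs, total within 3-fold of the library median), which left out 14, 168 and 177 barcodes. Scores were UMIs per 10000, z-scored within a library. UMIs were summed per class and library to CPM. A gene was tested between classes at 20 CPM or more in either class and called at 1.5-fold in all 3 libraries, or between doses at 2-fold. List members were read from 5 CPM. Shares over all genes thus leave out genes under 20 CPM, which the lists can hold. Rule genes were left out of the counts between classes, and histone genes out of counts over all 3 libraries that involve histone-low members. Intervals are 95% (exact Poisson for CPM, exact binomial for shares, conditional binomial for ratios). Reads were counted by UMI, and these intervals cover counting error only; with 1 library per dose no test was made.

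Genes are named if they are among the 12 per direction with the largest smallest ratio over the 3 libraries (10 per direction for doses, 50 against 0 ng/ml) or belong to 1 of 23 gene lists; predicted, ribosomal protein and mitochondrial genes are not named. The members and the lists were chosen with earlier results of these data known. The comparisons with S-leading and G2M-leading cells and the limit of 10 UMIs for 2-cell-like cells were chosen after seeing the data, as were 2 alternatives (without 2-cell-like cells, and a histone score without Hist1h2ap). Scrublet (scanpy 1.11.5) called 12, 7 and 26 doublets, of which 2, 3 and 4 were members; they were kept, and left out as an alternative. Coordinates are from GENCODE M21 (GRCm38), and promoters from RefSeq. Counting was tested on simulated counts. All 2-fold changes were recovered between members and other intact cells (100%) and 97% between histone-high and histone-low members, with 0 unchanged genes called. Changes of 1.25-fold were called in 0% of cases. Between doses, changes of 3-fold were called in 100% and of 1.5-fold in 0%. The simulated sums held Poisson counting error only, without differences between cells or libraries. They therefore do not show how often single cells produce a call. Python 3.11.15, numpy 2.4.6, scipy 1.17.1, pandas 2.3.3, matplotlib 3.10.9 and, for TMM factors only, edgeR 4.0.16 in R 4.3.3 were used.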

Additional observations from a re-analysis of the deposited data

Results flagged for a closer look

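The list of 2-cell-like genes pointed in opposite directions between doses when histone-high members were set against histone-low members. Its median log2 ratio was 2.801 without FGF4, -7.159 with 5 ng/ml and -6.528 with 50 ng/ml. At 0 ng/ml the UMIs came mainly from 2 histone-high cells with 1362 and 163, at 5 ng/ml from 1 histone-low cell with 276, and at 50 ng/ml from 4 histone-low cells with 68 to 2003. The difference between doses was not tested. Among barcodes left out as not intact, 3 at 50 ng/ml held 10 or more UMIs of the same list (185, 354 and 658), and 0 did at 0 and 5 ng/ml.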

How the results depend on the processing

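Over 24 alternatives and 52 results, 735 values were recomputed. Of the values that summarise a comparison, 272 stayed within their counting interval or within 1.5 times the reported count, 154 did not, and 0 changed sign. Shares, UMI ratios and gene counts cannot change sign, so among these only median log2 ratios could have. Of single genes 227 stayed, 78 did not and 4 were counted as changing sign. These 4 leave out the Ccnd1 log2 ratio of histone-low members to S-leading cells at the middle dose. That ratio lay near 0 and also changed sign, with totals without mitochondrial and ribosomal protein genes. Where a value differs below, the cause was not tested.

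Counts between classes are given as higher and then lower, first for members against other intact cells (reported 7 and 1), then for histone-high against histone-low members (1 and 4), then for histone-low members against S-leading cells (10 and 13). With at most 5% mitochondrial UMIs they were 3 and 8, then 2 higher, then 3 and 20; 68.4% of members at 50 ng/ml were histone-high, and median log2 ratios were -0.34 (other G2/M genes, members against others), 0.064 (p53 targets, members against others) and 0.28 (G0, the quiescence and growth arrest genes, histone-low against S-leading). With no cell filter they were 4 and 6, 28 and 13, 19 and 143, with 14 genes lower at 50 than at 5 ng/ml; histone-high shares were 41.9% and 43.8% at 5 and 50 ng/ml, UMI ratios 0.273 and 0.180, and medians -0.29 (other S), -0.38 (other G2/M), 0.13 (G0) and 0.15 (G1 cyclins, 50 against 0 ng/ml). With z at most -0.25 they were 12 and 6, 5 and 17, 30 and 28, with 9 higher and 21 lower at 50 than at 5 ng/ml; members were 11.4%, 10.3% and 13.7% of intact cells, the UMI ratio at 5 ng/ml 0.893, histone-high members at 50 ng/ml 83.5%, and medians -0.25 (other S) and -0.36 (other G2/M).

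With cuts at library medians members were 16.7%, 14.9% and 17.8%, with 2 genes lower in members, 10 lower in histone-high and 21 higher in histone-low members, and an other G2/M median of -0.30. On log2 scores members were 13.9%, 13.3% and 18.0%, the UMI ratio at 0 ng/ml was 0.748, 2 genes were lower in members, 2 higher and 9 lower in histone-high members, and 14 lower at 50 than at 5 ng/ml. On cells thinned to 25000 UMIs members were 22.8% at 5 ng/ml, with 4 genes higher in members, 1 lower in histone-high members, 5 and 3 against S-leading cells, and medians of -0.29 (other G2/M) and 0.15 (p53, members against others). With the other S and G2/M genes added to the scores the counts were 4 and 3, 0 and 0, and 22 lower against S-leading cells, with 4 higher at 50 than at 5 ng/ml and medians of -0.27 (other S), -0.34 (other G2/M) and 0.32 (G0). With the histone cut at the members' median, 49.4%, 50.0% and 50.0% were histone-high by construction, and the G0 median was 0.30.

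From 5 CPM the counts were 16 and 6, 4 and 29, 59 and 36; between doses they were 221 and 326 (5 against 0), 255 and 471 (50 against 0), and 34 and 28 (50 against 5). From 50 CPM they were 3 higher in members, 0 and 1, 2 and 8; between doses 47 and 41, 65 and 54, and 8 and 4. At the lower planned fold limit between classes they were 27 and 38, 15 and 47, 55 and 115, and at 2-fold 0 and 0, 0 and 0, 4 and 2. Between doses 1.5-fold gave 215 and 314, 299 and 479, and 29 and 37, and 3-fold gave 41 and 37, 60 and 45, and 5 lower. Mean shares per cell gave 2 lower in members, 2 higher in histone-high members, 16 higher against S-leading cells and 14 lower at 50 than at 5 ng/ml. TMM scaling gave 2 lower in members, 3 and 2 for histone-high members, and medians of -0.17 (other S) and -0.29 (other G2/M). Totals without mitochondrial and ribosomal protein genes gave 9 lower in histone-high members, 31 higher against S-leading cells, and medians of -0.16 and -0.27. TMM shifted log2 ratios by 0.10 for 50 against 0 ng/ml and by -0.08, -0.02 and 0.00 for histone-low against S-leading cells.

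Leaving out the 0 ng/ml library gave 4 lower in members, 3 and 30 for histone-high members, and 21 higher against S-leading cells. Leaving out 5 ng/ml gave 20 and 2, 4 and 14, and 21 lower. Leaving out 50 ng/ml gave 3 lower, 6 and 32, and 65 and 30. Without 2-cell-like cells, added after seeing the data, 2 genes were lower in members, 2 and 0 differed for histone-high members, 1 and 5 between 50 and 5 ng/ml, and the other G2/M median was -0.30. Without Hist1h2ap in the histone score, also added then, 67.8% of members at 50 ng/ml were histone-high. Leaving out called doublets, or Hist1h1c and Hist1h4d from the score, changed none of these summary values by that much.

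Of single genes, the log2 ratio of Ccnd1 in members at 50 against 0 ng/ml was -0.045 with at most 5% mitochondrial UMIs and -0.030 with no cell filter (reported 0.17). That of Plk2 in histone-low members against S-leading cells at 0 ng/ml was -0.40 with at most 5% mitochondrial UMIs, with 6 histone-low cells left, and that of Mdm2 at 50 ng/ml was -0.020 with no cell filter. No paired analysis was possible because each dose is 1 library. Depth limits genes under 5 CPM, and the classes of 22 to 42 histone-low cells per library let 1 cell set a level.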

Other observations

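Targets of ATF4, the factor of the amino acid stress response, were read in the members as a list not described above. Of 10 measured genes 3 were at least 1.5-fold higher in members than in other intact cells at 0 ng/ml (Ddit3, Chac1 and Ddit4). At 5 ng/ml 1 was higher (Ddit3) and at 50 ng/ml 0 were, with 0 lower. Of all genes from 20 CPM, 1.28%, 0.29% and 0.532% were that much higher. List genes were read from 5 CPM, and Chac1 lay under 20 CPM, so these shares are not a like measure for the list. The list's median log2 ratio was 0.32, 0.07 and 0.02, against -0.04, -0.05 and -0.06 over all genes tested. Chac1, which degrades glutathione, was at 10.4, 13.5 and 16.5 CPM in members and at 5.37, 11.3 and 14.3 CPM in others. It was lower in histone-low members (5.52, 1.48 and 6.33 CPM) than in histone-high members (11.9, 16.9 and 19.4 CPM), the reverse of Plk2 and Btg2. The histone-low levels rest on few Chac1 UMIs, as that class held 1811578, 2706730 and 3477168 UMIs of all genes. Genes of heat shock gave 0 of 9 measured past 1.5-fold at any dose.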
